A study of Homo sapiens with 48 samples.

Results

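The kinesin genes were followed in T47D-YA breast cancer cells that express a single insulin receptor substrate (IRS) isoform and were given insulin-like growth factor I (IGF-I) or left without it. Members were all genes whose single platform symbol is KIF or KIFC followed by a number and at most 1 letter from A to C, and the brightest probe set, by the mean of the 48 arrays, stood for each gene. This rule found 41 members among the 19775 genes that have at least 1 single-symbol probe set. By their textbook roles 14 members were listed as kinesins of the spindle (10) or of cytokinesis (4), and 27 as kinesins of transport, of cilia and kinesin-4 relatives, or of other roles. These role lists were drawn up with earlier results of these data known.

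T47D-YA is a variant of the T47D luminal breast cancer line that lacks IRS proteins. The labels give IRS-1 to clones #10 and #20 and IRS-2 to clones #1 and #6, so each line is 1 clone and all lines share the T47D-YA background, and per the methods hygromycin in the medium kept up the isoform's expression. After 24 h in serum-free medium (SFM) the cells received IGF-I or SFM with fibronectin alone, and RNA was collected after 4 h and after 24 h; whether the cells given IGF-I also received fibronectin is not spelled out. Clone, treatment and time define 16 groups of 3 Affymetrix HG-U133 Plus 2.0 arrays each, 48 in all, and those without IGF-I are the SFM arrays. The values are on a log2 scale, where a difference of 1 is a doubling, and a level of 1 gene cannot be set against that of another because each probe set binds differently.

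Kinesins are motor proteins that use ATP to step along microtubules or, in some families, to take microtubules apart at their ends. Spindle kinesins build the bipolar spindle, align chromosomes and set microtubule length, and cytokinesis kinesins organise the central spindle and the midbody when the daughter cells separate. The transcripts of many of these mitotic motors are made mostly late in the cell cycle and are low in resting cells. Transport kinesins carry vesicles, organelles and RNA at any stage of the cycle, and the ciliary members work at centrioles and in the axoneme. IGF-I is a growth factor that signals through its receptor and the IRS adaptors and drives breast cancer cells into the cell cycle.

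Late cell cycle genes often carry 2 short promoter elements, the cell cycle genes homology region (CHR), whose core is TTTGAA, and the CCAAT box. Both were searched on either strand in the RefSeq promoter windows (GRCh38.p14, 300 bases, 250 before to 50 after a start). Of the 15 windows of the 14 spindle and cytokinesis members, 9 (60%) held the CHR core, 10 (66.7%) held CCAAT and 8 (53.3%) held both. Of the 27 windows that covered 19 other members, 1 (3.70%) held the CHR core, that of KIF5B, and 9 (33.3%) held CCAAT. Over all 35116 windows of the table the shares were 15.2% for the CHR core, 34.6% for CCAAT and 5.90% for both. KIF15 held the CHR core without CCAAT, KIF20A and KIF22 held CCAAT without the CHR core, and KIF2A, KIF2B and KIF2C held neither. A match is a description of the letters and shows no binding. The 90 bases before the start are printed for 4 mitotic members with both elements, for KIF20A with CCAAT alone and for the endosome motor KIF13A, which was lower after IGF-I and has neither element. Capitals mark a CHR core (TTTGAA or, on the other strand, TTCAAA) or a CCAAT box (CCAAT or ATTGG).
KIF23 (chr15:69414259-69414348, plus strand): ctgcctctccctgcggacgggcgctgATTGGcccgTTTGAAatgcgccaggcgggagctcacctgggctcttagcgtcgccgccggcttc
KIF11 (chr10:92593040-92593129, plus strand): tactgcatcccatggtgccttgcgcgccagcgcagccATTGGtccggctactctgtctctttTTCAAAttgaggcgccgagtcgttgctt
KIF4A (chrX:70290014-70290103, plus strand): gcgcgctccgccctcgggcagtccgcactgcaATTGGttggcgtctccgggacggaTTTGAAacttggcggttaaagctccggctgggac
KIF18A (chr11:28108157-28108246, minus strand): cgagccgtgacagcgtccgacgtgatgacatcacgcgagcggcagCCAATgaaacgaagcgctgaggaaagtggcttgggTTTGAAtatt
KIF20A (chr5:138179022-138179111, plus strand): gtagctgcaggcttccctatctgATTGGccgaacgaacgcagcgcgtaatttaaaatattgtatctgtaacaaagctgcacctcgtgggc
KIF13A (chr6:17987636-17987725, minus strand): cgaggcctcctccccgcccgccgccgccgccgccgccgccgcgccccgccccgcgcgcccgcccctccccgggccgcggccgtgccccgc

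Array medians lay between 7.39 and 7.51, and arrays of 1 group correlated at 0.994 to 0.998 across probe sets. Over the arrays the 8 luminal epithelial markers spanned 9.69 to 14.91, the fibroblast genes (4) 7.37 to 10.90, the endothelial genes (4) 5.04 to 9.54 and the leukocyte genes (2) 6.18 to 8.50, and as these are different probe sets the lists are not ranked. The IRS1 probe set averaged 8.03 in IRS-1 clone #10 and 8.09 in IRS-1 clone #20, against 8.23 in IRS-2 clone #1 and 8.17 in IRS-2 clone #6, and the IRS2 probe set averaged 7.38 and 7.17 in these IRS-1 clones, against 6.90 and 6.89 in these IRS-2 clones. These values do not show the transferred isoform, and whether the probe sets lie within the transferred sequences could not be read from the files, so clone names follow the labels. The 3-prime minus 5-prime signal of ACTB, a sign of RNA quality, was lower in IGF-I than in SFM arrays in all 8 comparisons. These differences were -0.05 to -0.01 on the log2 scale over both times. Between isoforms the gap was larger, as the SFM means were 0.19 to 0.25 in the IRS-1 clones, against 0.11 to 0.16 in the IRS-2 clones. The part of RNA quality in the results, SFM levels between isoforms included, was not tested. The labels do not say that the 3 arrays of a group came from separate cultures, so p-values measure only the spread between these arrays. Of the 41 members, 40 passed a filter of log2 5 on at least 3 arrays, and KIF24 did not (4.27 to 5.03).

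After 24 h of IGF-I most spindle and cytokinesis kinesins rose in IRS-1 clone #10, IRS-1 clone #20 and IRS-2 clone #1. In IRS-2 clone #6 6 of the 14 rose. A few kinesins of other roles fell, but outside IRS-1 clone #20 the share of members that fell was near or below that of all genes. In IRS-1 clone #10 12 members rose and 3 fell, where 4.39% of all genes rose and 6.65% fell. In IRS-1 clone #20 12 members rose and 4 fell, against 7.46% and 2.95% of all genes. In IRS-2 clone #1 11 members rose and 0 fell, against 2.93% and 1.62% of all genes. In IRS-2 clone #6 6 members rose and 1 fell, against 1.42% and 4.34% of all genes. All members that rose were spindle or cytokinesis kinesins, and all that fell were of other roles. As the role lists were chosen with earlier results of these data known, this split is a description and no test. A gene was counted at a Benjamini-Hochberg adjusted p under 0.05 in limma, taken over all probe sets. At an unadjusted p under 0.05, 19 of the 41 members differed in IRS-1 clone #10 (23.8% of all genes), 20 in IRS-1 clone #20 (21.5%), 16 in IRS-2 clone #1 (15.7%) and 16 in IRS-2 clone #6 (19.0%).

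The median log2 fold change of the 14 mitotic members at 24 h was 0.49 in IRS-1 clone #10, 0.28 in IRS-1 clone #20, 0.35 in IRS-2 clone #1 and 0.19 in IRS-2 clone #6. For the 27 other members it was -0.02, -0.02, -0.01 and -0.01 in these clones, and for all genes it lay between -0.01 and 0.01. The rises were small. At 1.5-fold or more, KIF14, KIF23 and KIF18B were called in IRS-1 clone #10 (0.298% of all genes), KIF14 alone was called in IRS-1 clone #20 (0.314%), and 0 members were called in IRS-2 clone #1 (0.0354%) or IRS-2 clone #6 (0.0657%). More cells in mitosis and more RNA per cell cannot be told apart in these arrays of whole cultures. With each array centred on its median, 3 members in place of 7 passed in IRS-2 clone #6. Without the B arrays of every group 6 members passed in IRS-1 clone #20, and without the C arrays 7 passed in IRS-2 clone #1 and 3 in IRS-2 clone #6.

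**Figure D1:**
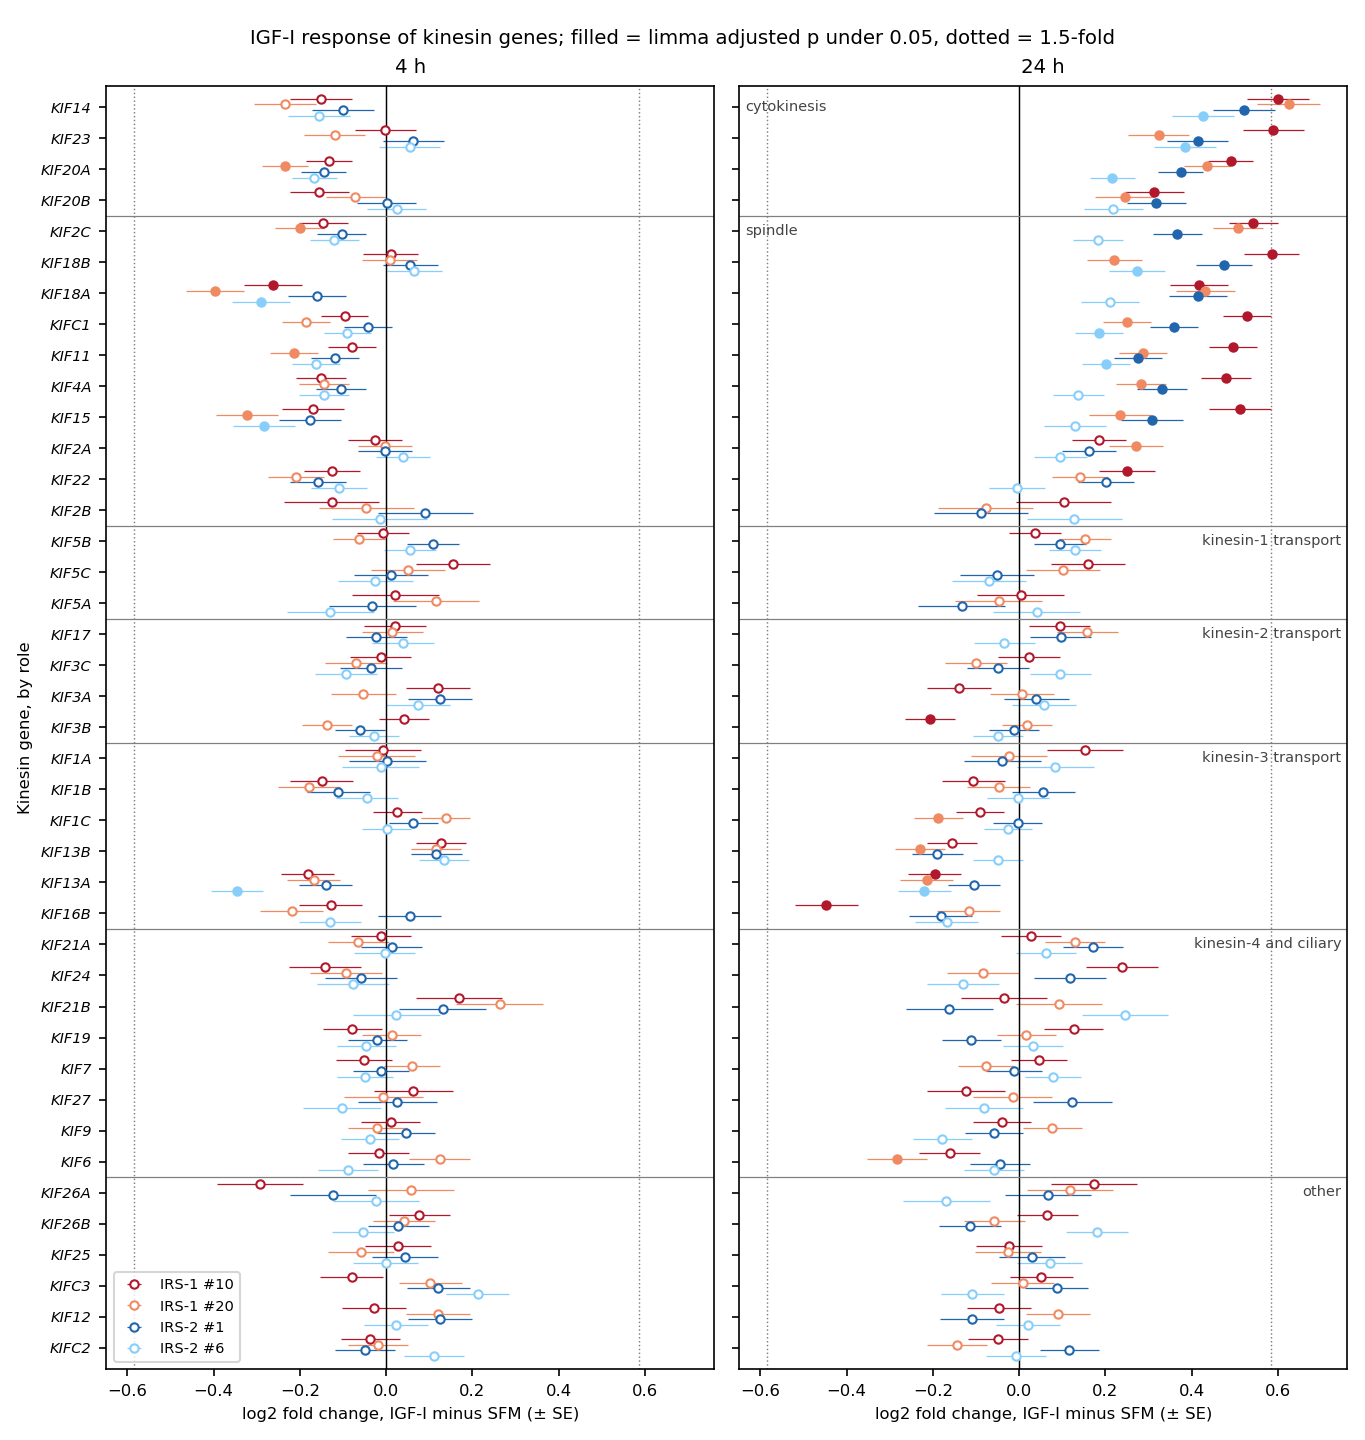
Log2 fold change (IGF-I minus SFM, ± SE of the fit) of each of the 41 kinesin genes, by role, in the 4 clones at 4 h (left) and 24 h (right). Filled points passed the adjusted p, and the dotted lines mark 1.5-fold; at 24 h the cytokinesis genes lie between 0.22 and 0.62 in every clone, while kinesin-1 genes lie between -0.13 and 0.16.

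KIF14 organises the central spindle and midbody together with PRC1 and citron kinase, and it had the largest response of the 41 members at 24 h in each of the 4 clones. KIF14 in IRS-1 clone #10 was 9.91, 9.99 and 9.89 with IGF-I, against 9.27, 9.34 and 9.39 in SFM, and in IRS-1 clone #20 it was 10.20, 10.35 and 10.44 with IGF-I, against 9.59, 9.72 and 9.80 in SFM. KIF14 in IRS-2 clone #1 was 10.57, 10.64 and 10.61 with IGF-I, against 10.15, 10.02 and 10.08 in SFM, and in IRS-2 clone #6 it was 10.41, 10.51 and 10.52 with IGF-I, against 10.02, 10.13 and 10.01 in SFM. In every clone all 3 IGF-I arrays lay above all 3 SFM arrays. The log2 fold changes were 0.60 in IRS-1 clone #10, 0.62 in IRS-1 clone #20, 0.52 in IRS-2 clone #1 and 0.43 in IRS-2 clone #6 (SE 0.07 each), which is 1.54-fold in IRS-1 clone #20 (adjusted p = 1.09e-08) and 1.34-fold in IRS-2 clone #6 (adjusted p = 0.000101). Its second probe set gave 0.64, 0.61, 0.60 and 0.38 in the same clones, all past the adjusted p.

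KIF23 is the motor of centralspindlin, the complex it forms with RACGAP1 at the spindle midzone. KIF23 in IRS-1 clone #10 was 10.35, 10.36 and 10.32 with IGF-I, against 9.75, 9.70 and 9.81 in SFM, and in IRS-1 clone #20 it was 10.55, 10.66 and 10.53 with IGF-I, against 10.31, 10.27 and 10.20 in SFM. KIF23 in IRS-2 clone #1 was 10.76, 10.58 and 10.76 with IGF-I, against 10.35, 10.31 and 10.21 in SFM, and in IRS-2 clone #6 it was 10.47, 10.63 and 10.79 with IGF-I, against 10.20, 10.21 and 10.32 in SFM. Groups did not overlap in any clone, although the IGF-I arrays of IRS-2 clone #6 were widely spread. KIF23 differed by 0.59 in IRS-1 clone #10, 0.32 in IRS-1 clone #20, 0.41 in IRS-2 clone #1 and 0.38 in IRS-2 clone #6 (SE 0.07 each), with an adjusted p of 2.83e-08 in IRS-1 clone #10 and 0.00155 in IRS-1 clone #20. Without the B arrays of every group the call in IRS-1 clone #20 was lost (0.29), and a dimmer second probe set passed in IRS-1 clone #10 alone (0.39).

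KIF20A brings the chromosomal passenger complex with Aurora B to the midzone at anaphase. KIF20A in IRS-1 clone #10 was 10.23, 10.09 and 10.14 with IGF-I, against 9.61, 9.68 and 9.70 in SFM, and in IRS-1 clone #20 it was 10.58, 10.72 and 10.58 with IGF-I, against 10.13, 10.19 and 10.26 in SFM. KIF20A in IRS-2 clone #1 was 10.69, 10.70 and 10.69 with IGF-I, against 10.38, 10.28 and 10.30 in SFM, and in IRS-2 clone #6 it was 10.66, 10.71 and 10.78 with IGF-I, against 10.52, 10.47 and 10.51 in SFM. IGF-I arrays were above SFM arrays in all 4 clones, with the narrowest gap in IRS-2 clone #6. Its responses were 0.49 in IRS-1 clone #10, 0.44 in IRS-1 clone #20, 0.37 in IRS-2 clone #1 and 0.22 in IRS-2 clone #6 (SE 0.05 each), and the adjusted p in IRS-2 clone #6 was 0.00929. That call was lost without the B arrays (0.21) or the C arrays (0.19).

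KIF20B, a relative of KIF20A that also acts in cytokinesis, rose in 3 clones. KIF20B in IRS-1 clone #10 was 9.65, 9.77 and 9.68 with IGF-I, against 9.36, 9.44 and 9.36 in SFM, and in IRS-1 clone #20 it was 9.83, 9.93 and 10.00 with IGF-I, against 9.71, 9.70 and 9.61 in SFM. KIF20B in IRS-2 clone #1 was 9.95, 9.88 and 9.94 with IGF-I, against 9.68, 9.60 and 9.54 in SFM, and in IRS-2 clone #6 it was 9.83, 9.83 and 10.02 with IGF-I, against 9.66, 9.62 and 9.75 in SFM. The groups stood apart in each clone, and the responses were 0.31 in IRS-1 clone #10, 0.25 in IRS-1 clone #20, 0.32 in IRS-2 clone #1 and 0.22 in IRS-2 clone #6 (SE 0.07 each). In IRS-2 clone #6 the adjusted p was 0.0602. KIF20B lost its call in IRS-1 clone #20 without the B (0.26) or C arrays (0.17) and in IRS-2 clone #1 without the C arrays (0.28), and its other probe sets, dimmer ones, passed in no clone (-0.06 to 0.16).

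**Figure D2:**
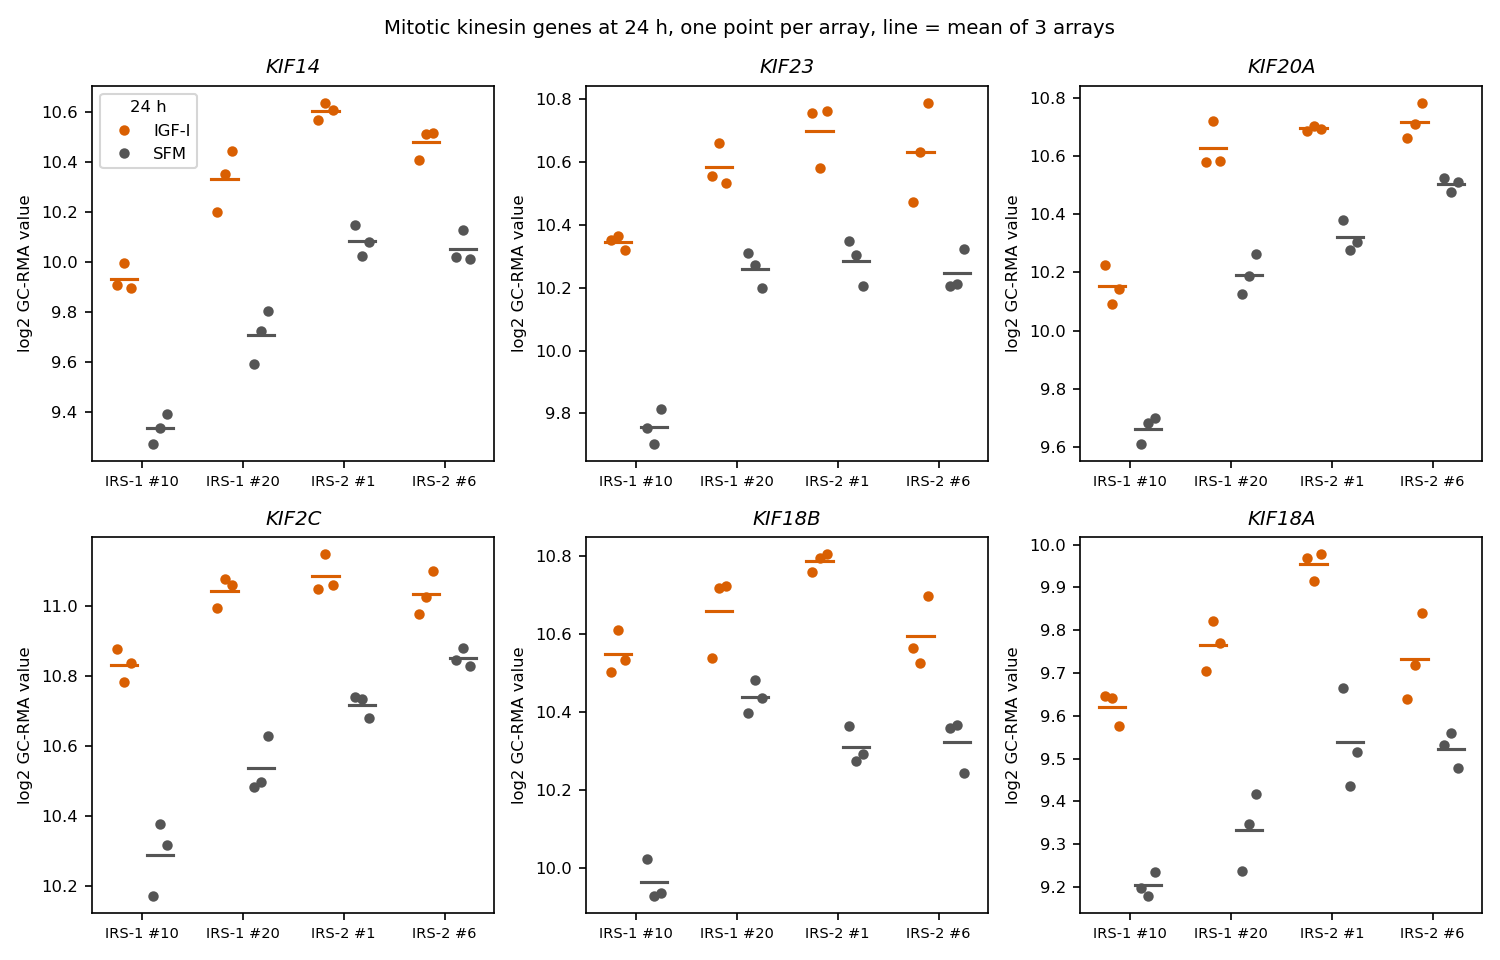
Log2 level at 24 h of KIF14, KIF23, KIF20A, KIF2C, KIF18B and KIF18A on every array, 1 point per array, with IGF-I left of SFM in each clone and a line at the mean of 3 arrays. In each of these genes and clones all IGF-I points lie above all SFM points, and in KIF14, KIF23, KIF20A, KIF2C and KIF18B the SFM points of IRS-1 clone #10 are the lowest of the clones. The share of all genes without such overlap was not computed. KIF22 and KIF2A, whose groups overlapped in at least 1 clone, are not shown.

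Among the spindle motors, KIF11 (also known as Eg5) slides antiparallel microtubules apart and so separates the spindle poles. KIF11 in IRS-1 clone #10 was 10.65, 10.70 and 10.72 with IGF-I, against 10.17, 10.16 and 10.25 in SFM, and in IRS-1 clone #20 it was 10.55, 10.66 and 10.70 with IGF-I, against 10.30, 10.36 and 10.38 in SFM. KIF11 in IRS-2 clone #1 was 10.90, 10.78 and 10.86 with IGF-I, against 10.64, 10.57 and 10.51 in SFM, and in IRS-2 clone #6 it was 10.68, 10.70 and 10.80 with IGF-I, against 10.51, 10.54 and 10.54 in SFM. All IGF-I arrays exceeded all SFM arrays of their clone. KIF11 changed by 0.50 in IRS-1 clone #10, 0.29 in IRS-1 clone #20, 0.27 in IRS-2 clone #1 and 0.20 in IRS-2 clone #6 (SE 0.06 each), with an adjusted p of 5.52e-09 in IRS-1 clone #10 and 0.0275 in IRS-2 clone #6. The IRS-2 clone #6 call was lost without the arrays of any 1 letter (0.17 to 0.22), and the IRS-2 clone #1 call without the C arrays (0.24).

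KIF15, a kinesin-12 that can keep the spindle bipolar when KIF11 is inhibited, rose in 3 clones. KIF15 in IRS-1 clone #10 was 8.93, 8.95 and 8.92 with IGF-I, against 8.37, 8.38 and 8.52 in SFM, and in IRS-1 clone #20 it was 8.90, 9.03 and 9.11 with IGF-I, against 8.63, 8.83 and 8.88 in SFM. KIF15 in IRS-2 clone #1 was 9.07, 9.15 and 9.13 with IGF-I, against 8.86, 8.81 and 8.76 in SFM, and in IRS-2 clone #6 it was 8.82, 8.83 and 8.96 with IGF-I, against 8.72, 8.81 and 8.69 in SFM. In IRS-1 clone #10 the groups were far apart, while in IRS-1 clone #20 and IRS-2 clone #6 the nearest arrays of the groups almost met. KIF15 responses were 0.51 in IRS-1 clone #10, 0.23 in IRS-1 clone #20, 0.31 in IRS-2 clone #1 and 0.13 in IRS-2 clone #6 (SE 0.07 each), and IRS-2 clone #6 did not pass (adjusted p = 0.408). The IRS-1 clone #20 call was lost without any 1 letter (0.22 to 0.25) and the IRS-2 clone #1 call without the B (0.29) or C arrays (0.28).

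KIFC1, a kinesin-14 that moves to the minus end and focuses the poles, rose in all 4 clones. KIFC1 in IRS-1 clone #10 was 10.92, 10.91 and 10.81 with IGF-I, against 10.37, 10.41 and 10.28 in SFM, and in IRS-1 clone #20 it was 10.89, 10.97 and 10.92 with IGF-I, against 10.60, 10.63 and 10.80 in SFM. KIFC1 in IRS-2 clone #1 was 11.21, 11.23 and 11.18 with IGF-I, against 10.92, 10.86 and 10.74 in SFM, and in IRS-2 clone #6 it was 11.00, 10.91 and 11.01 with IGF-I, against 10.75, 10.88 and 10.73 in SFM. In each clone the IGF-I arrays were the higher ones. KIFC1 differed by 0.53 in IRS-1 clone #10, 0.25 in IRS-1 clone #20, 0.36 in IRS-2 clone #1 and 0.19 in IRS-2 clone #6 (SE 0.06 each), and the IRS-2 clone #6 value had an adjusted p of 0.045. Calls were lost in IRS-1 clone #20 without the A (0.23) or B arrays (0.21) and in IRS-2 clone #6 without the A (0.16) or C arrays (0.14).

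KIF4A is a chromokinesin that works with PRC1 to set the length of midzone microtubules, and its probe set may not separate it from the near-identical KIF4B, which has no probe set of its own here. KIF4A in IRS-1 clone #10 was 10.34, 10.29 and 10.15 with IGF-I, against 9.70, 9.86 and 9.77 in SFM, and in IRS-1 clone #20 it was 10.56, 10.67 and 10.69 with IGF-I, against 10.31, 10.32 and 10.45 in SFM. KIF4A in IRS-2 clone #1 was 10.59, 10.76 and 10.73 with IGF-I, against 10.39, 10.38 and 10.32 in SFM, and in IRS-2 clone #6 it was 10.58, 10.61 and 10.68 with IGF-I, against 10.44, 10.55 and 10.46 in SFM. The 2 groups did not overlap in any clone. KIF4A rose in IRS-1 clone #10, IRS-1 clone #20 and IRS-2 clone #1, with responses of 0.48 in IRS-1 clone #10, 0.28 in IRS-1 clone #20, 0.33 in IRS-2 clone #1 and 0.14 in IRS-2 clone #6 (SE 0.06 each). The adjusted p in IRS-2 clone #6 was 0.219, and calls were lost in IRS-1 clone #20 without the B arrays (0.24) and in IRS-2 clone #1 without the C arrays (0.29).

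KIF22, the other chromokinesin, pushes chromosome arms away from the poles and moved less. KIF22 in IRS-1 clone #10 was 9.93, 9.87 and 9.93 with IGF-I, against 9.53, 9.72 and 9.73 in SFM, and in IRS-1 clone #20 it was 9.71, 9.75 and 9.67 with IGF-I, against 9.50, 9.54 and 9.67 in SFM. KIF22 in IRS-2 clone #1 was 10.01, 10.14 and 10.11 with IGF-I, against 9.87, 9.90 and 9.89 in SFM, and in IRS-2 clone #6 it was 9.89, 9.86 and 9.91 with IGF-I, against 9.86, 9.99 and 9.84 in SFM. Only in IRS-1 clone #10 and IRS-2 clone #1 were all IGF-I arrays above the SFM arrays. KIF22 differed by 0.25 in IRS-1 clone #10, 0.14 in IRS-1 clone #20, 0.20 in IRS-2 clone #1 and -0.01 in IRS-2 clone #6 (SE 0.07 each), and it passed in IRS-1 clone #10 alone (adjusted p = 0.00834), a call lost without the A (0.18) or C arrays (0.27). Its second probe set passed in IRS-1 clone #10 (0.33) and IRS-2 clone #1 (0.25).

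KIF18A, a kinesin-8 that dampens the movement of microtubule plus ends at kinetochores, rose in 3 clones. KIF18A in IRS-1 clone #10 was 9.65, 9.64 and 9.58 with IGF-I, against 9.20, 9.18 and 9.24 in SFM, and in IRS-1 clone #20 it was 9.70, 9.82 and 9.77 with IGF-I, against 9.24, 9.35 and 9.42 in SFM. KIF18A in IRS-2 clone #1 was 9.97, 9.91 and 9.98 with IGF-I, against 9.66, 9.44 and 9.51 in SFM, and in IRS-2 clone #6 it was 9.64, 9.72 and 9.84 with IGF-I, against 9.53, 9.56 and 9.48 in SFM. IGF-I arrays lay above SFM arrays in all clones, by the least in IRS-2 clone #6. KIF18A changed by 0.42 in IRS-1 clone #10, 0.43 in IRS-1 clone #20, 0.42 in IRS-2 clone #1 and 0.21 in IRS-2 clone #6 (SE 0.07 each), nearly the same amount in the 3 clones where it passed, and the IRS-2 clone #6 value had an adjusted p of 0.0685.

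KIF18B, the kinesin-8 of astral microtubules, rose in all 4 clones but unevenly. KIF18B in IRS-1 clone #10 was 10.50, 10.61 and 10.53 with IGF-I, against 10.02, 9.93 and 9.94 in SFM, and in IRS-1 clone #20 it was 10.54, 10.72 and 10.72 with IGF-I, against 10.40, 10.48 and 10.44 in SFM. KIF18B in IRS-2 clone #1 was 10.76, 10.79 and 10.80 with IGF-I, against 10.36, 10.27 and 10.29 in SFM, and in IRS-2 clone #6 it was 10.56, 10.52 and 10.70 with IGF-I, against 10.36, 10.37 and 10.24 in SFM. The groups did not overlap, and the SFM arrays of IRS-1 clone #10 were the lowest of all clones. KIF18B differed by 0.59 in IRS-1 clone #10, 0.22 in IRS-1 clone #20, 0.48 in IRS-2 clone #1 and 0.27 in IRS-2 clone #6 (SE 0.06 each), with an adjusted p of 3.23e-09 in IRS-1 clone #10 and 0.0234 in IRS-1 clone #20. The IRS-1 clone #20 call was lost without any 1 letter (0.19 to 0.26), and the IRS-2 clone #6 call without the C arrays (0.18).

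KIF2C (also known as MCAK) is the kinesin-13 that takes microtubules apart at centromeres and corrects faulty attachments. KIF2C in IRS-1 clone #10 was 10.88, 10.78 and 10.84 with IGF-I, against 10.17, 10.38 and 10.32 in SFM, and in IRS-1 clone #20 it was 10.99, 11.08 and 11.06 with IGF-I, against 10.48, 10.50 and 10.63 in SFM. KIF2C in IRS-2 clone #1 was 11.05, 11.15 and 11.06 with IGF-I, against 10.74, 10.73 and 10.68 in SFM, and in IRS-2 clone #6 it was 10.98, 11.02 and 11.10 with IGF-I, against 10.84, 10.88 and 10.83 in SFM. The SFM levels of IRS-1 clone #10 were the lowest and its IGF-I levels did not reach those of IRS-2 clone #1. KIF2C responses were 0.54 in IRS-1 clone #10, 0.51 in IRS-1 clone #20, 0.37 in IRS-2 clone #1 and 0.18 in IRS-2 clone #6 (SE 0.06 each), and the adjusted p in IRS-2 clone #6 was 0.0591. A second probe set passed in all 4 clones, with 0.57, 0.57, 0.40 and 0.23 in the same order of clones.

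KIF2A, the kinesin-13 of the spindle poles that also acts outside mitosis, passed only in IRS-1 clone #20. KIF2A in IRS-1 clone #10 was 10.38, 10.29 and 10.28 with IGF-I, against 10.10, 10.18 and 10.11 in SFM, and in IRS-1 clone #20 it was 10.25, 10.34 and 10.39 with IGF-I, against 9.92, 10.09 and 10.16 in SFM. KIF2A in IRS-2 clone #1 was 10.51, 10.57 and 10.63 with IGF-I, against 10.46, 10.35 and 10.42 in SFM, and in IRS-2 clone #6 it was 10.51, 10.58 and 10.69 with IGF-I, against 10.47, 10.56 and 10.45 in SFM. Groups overlapped in IRS-2 clone #6. Differences for KIF2A were 0.19 in IRS-1 clone #10, 0.27 in IRS-1 clone #20, 0.16 in IRS-2 clone #1 and 0.10 in IRS-2 clone #6 (SE 0.06 each), with an adjusted p of 0.00262 in IRS-1 clone #20 and 0.0549 in IRS-1 clone #10. These are values of the brighter of its 2 probe sets, and the other is not given. KIF2B, the third kinesin-13, passed in no clone at either time, and its levels lay between 5.77 and 6.54 over all arrays.

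At 24 h, of the 27 other members 3 fell in IRS-1 clone #10, 4 in IRS-1 clone #20, 0 in IRS-2 clone #1 and 1 in IRS-2 clone #6. Of all genes 6.65%, 2.95%, 1.62% and 4.34% fell in the same order. The kinesin-3 motors of endosomes and vesicles (6 members) held 2, 3, 0 and 1 of these falls, and the lists were not tested against all genes. KIF13A, which carries recycling endosome cargo, fell in 3 clones at 24 h. KIF13A in IRS-1 clone #10 was 10.74, 10.73 and 10.68 with IGF-I, against 10.80, 10.94 and 11.00 in SFM, and in IRS-1 clone #20 it was 10.36, 10.46 and 10.59 with IGF-I, against 10.65, 10.69 and 10.71 in SFM. KIF13A in IRS-2 clone #1 was 10.95, 10.99 and 10.94 with IGF-I, against 11.07, 11.02 and 11.11 in SFM, and in IRS-2 clone #6 it was 11.03, 11.01 and 11.07 with IGF-I, against 11.29, 11.27 and 11.20 in SFM. IGF-I arrays lay below SFM arrays in every clone, IRS-2 clone #1 included. KIF13A changed by -0.20 in IRS-1 clone #10, -0.21 in IRS-1 clone #20, -0.11 in IRS-2 clone #1 and -0.22 in IRS-2 clone #6 (SE 0.06 each), with adjusted p-values of 0.0349 in IRS-1 clone #10, 0.0192 in IRS-1 clone #20 and 0.0274 in IRS-2 clone #6. Each call was lost without the arrays of some letter, at -0.19 (B) and -0.14 (C) in IRS-1 clone #10, -0.18 (A) and -0.21 (B) in IRS-1 clone #20, and -0.20 (A or B) in IRS-2 clone #6. Of its 6 probe sets, 1 more passed in the same 3 clones (-0.25, -0.27 and -0.27), and the 4 others passed in none.

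KIF16B binds early endosomes through a lipid-binding PX domain and had the largest fall of the family, in IRS-1 clone #10 alone. KIF16B was 9.71, 9.71 and 9.75 with IGF-I, against 10.09, 10.09 and 10.35 in SFM there, a difference of -0.45 ± 0.07 (SE, adjusted p = 1.74e-05). The SFM array of letter C was the highest, and the groups did not overlap. In the other clones its differences lay between -0.18 and -0.12 and did not pass, and a second probe set gave -0.05 in IRS-1 clone #10.

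KIF13B, which binds the polarity protein DLG1, fell in IRS-1 clone #20 at 24 h. KIF13B in IRS-1 clone #10 was 8.29, 8.51 and 8.47 with IGF-I, against 8.46, 8.67 and 8.62 in SFM, and in IRS-1 clone #20 it was 8.96, 8.95 and 8.98 with IGF-I, against 9.21, 9.15 and 9.23 in SFM. KIF13B in IRS-2 clone #1 was 9.17, 9.24 and 9.25 with IGF-I, against 9.36, 9.40 and 9.48 in SFM, and in IRS-2 clone #6 it was 9.13, 9.12 and 9.26 with IGF-I, against 9.18, 9.28 and 9.19 in SFM. IGF-I arrays were lower without overlap in IRS-1 clone #20 and IRS-2 clone #1. KIF13B differed by -0.16 in IRS-1 clone #10, -0.23 in IRS-1 clone #20, -0.19 in IRS-2 clone #1 and -0.05 in IRS-2 clone #6 (SE 0.06 each), with an adjusted p of 0.00691 in IRS-1 clone #20, and that call was lost without the arrays of any 1 letter (-0.25 to -0.22).

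KIF1C, a fast vesicle motor, also fell in IRS-1 clone #20 only. KIF1C in IRS-1 clone #10 was 8.84, 8.82 and 8.70 with IGF-I, against 8.94, 8.82 and 8.86 in SFM, and in IRS-1 clone #20 it was 8.65, 8.81 and 8.69 with IGF-I, against 8.83, 8.96 and 8.92 in SFM. KIF1C in IRS-2 clone #1 was 9.38, 9.44 and 9.54 with IGF-I, against 9.49, 9.37 and 9.50 in SFM, and in IRS-2 clone #6 it was 9.25, 9.27 and 9.32 with IGF-I, against 9.32, 9.32 and 9.28 in SFM. Outside IRS-1 clone #20 the groups overlapped. In IRS-1 clone #20 KIF1C differed by -0.19 ± 0.06 (SE, adjusted p = 0.0294), a call lost without any 1 letter (-0.20 to -0.16). KIF1C has 3 probe sets, and only the brightest is given here. The vesicle motors KIF1A and KIF1B passed in no clone at either time.

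KIF6, a motor of motile cilia, and the kinesin-2 subunit KIF3B, which pairs with KIF3A to carry cargo along cilia and in the cytoplasm, fell in 1 clone each. KIF6 in IRS-1 clone #10 was 7.98, 7.80 and 7.91 with IGF-I, against 8.08, 8.00 and 8.10 in SFM, and in IRS-1 clone #20 it was 7.66, 7.68 and 7.55 with IGF-I, against 7.89, 7.93 and 7.92 in SFM. KIF6 in IRS-2 clone #1 was 7.91, 8.03 and 7.97 with IGF-I, against 8.08, 7.99 and 7.98 in SFM, and in IRS-2 clone #6 it was 7.97, 8.02 and 8.07 with IGF-I, against 8.13, 8.02 and 8.07 in SFM. KIF6 arrays were clearly lower with IGF-I in IRS-1 clone #20, with a difference of -0.28 ± 0.07 (SE, adjusted p = 0.00582), a call lost without the B (-0.30) or C arrays (-0.24), and the 4 other KIF6 probe sets passed in no clone. KIF3B in IRS-1 clone #10 was 10.65, 10.65 and 10.63 with IGF-I, against 10.81, 10.81 and 10.92 in SFM, which is -0.21 ± 0.06 (SE, adjusted p = 0.0156) and was lost without the C arrays (-0.17). KIF3B differed by -0.05 to 0.02 in the other clones, and a second probe set did not pass in IRS-1 clone #10 (-0.11).

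The remaining transport, ciliary and other members passed in no clone at 24 h. The conventional kinesin-1 heavy chains KIF5A, KIF5B and KIF5C lay between -0.13 and 0.16, with KIF5C in IRS-1 clone #10 the largest (adjusted p = 0.307). Of the other kinesin-2 members KIF3A, KIF3C and KIF17, the homodimeric motor KIF17 had the highest value, 0.16 in IRS-1 clone #20. KIF21B in IRS-2 clone #6 (0.25 ± 0.10, SE, adjusted p = 0.2) and the centriole kinesin KIF24 in IRS-1 clone #10 (0.24 ± 0.08, SE, adjusted p = 0.0702) were the highest of the kinesin-4 and ciliary list, which also holds KIF7, KIF9, KIF19, KIF21A and KIF27. KIF26B in IRS-2 clone #6 was the largest of the 6 members of other roles (0.18 ± 0.07, SE, adjusted p = 0.175), ahead of KIF12, KIF25, KIF26A, KIFC2 and KIFC3.

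At 4 h the median response of the mitotic kinesins was below 0 in every clone, but few members passed. In IRS-1 clone #10 0 members were higher and 1 fell (1.18% and 1.47% of all genes), in IRS-1 clone #20 0 were higher and 5 fell (1.17% and 3.54%), in IRS-2 clone #1 0 passed in either direction (1.53% and 0.794%), and in IRS-2 clone #6 0 were higher and 3 fell (1.89% and 1.58%). At an unadjusted p under 0.05 the members that differed numbered 11 in IRS-1 clone #10 (15.5% of all genes), 15 in IRS-1 clone #20 (19.6%), 6 in IRS-2 clone #1 (12.9%) and 10 in IRS-2 clone #6 (13.5%). At 1.5-fold 0 members were called in IRS-1 clone #10 (0.086% of all genes), IRS-1 clone #20 (0.086%), IRS-2 clone #1 (0.142%) or IRS-2 clone #6 (0.303%), and the methods' t-test with the same fold called 0 as well. The median of the 14 mitotic members was -0.13 in IRS-1 clone #10, -0.19 in IRS-1 clone #20, -0.10 in IRS-2 clone #1 and -0.11 in IRS-2 clone #6, against -0.01, -0.01, 0.01 and -0.02 for the 27 other members and -0.01 for all genes. The calls at 4 h depended on the setting. Fitting only the 6 arrays compared left 0, 0, 0 and 2 members in the same order of clones. Without the A arrays 1, 11, 0 and 3 passed, without the B arrays 0, 1, 0 and 1, and without the C arrays 0, 0, 0 and 1.

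KIF18A was the member that fell in most clones at 4 h. KIF18A in IRS-1 clone #10 was 9.00, 9.06 and 8.89 with IGF-I, against 9.23, 9.29 and 9.22 in SFM, and in IRS-1 clone #20 it was 9.08, 8.87 and 8.94 with IGF-I, against 9.26, 9.34 and 9.49 in SFM. KIF18A in IRS-2 clone #1 was 9.73, 9.94 and 9.84 with IGF-I, against 9.92, 10.11 and 9.96 in SFM, and in IRS-2 clone #6 it was 9.44, 9.31 and 9.37 with IGF-I, against 9.53, 9.72 and 9.73 in SFM. The groups overlapped in IRS-2 clone #1 and stood apart in the other clones. KIF18A differed by -0.26 in IRS-1 clone #10, -0.40 in IRS-1 clone #20, -0.16 in IRS-2 clone #1 and -0.29 in IRS-2 clone #6 (SE 0.07 each), with an adjusted p of 0.000158 in IRS-1 clone #20 and 0.33 in IRS-2 clone #1. Calls were lost without the B (-0.28) or C arrays (-0.23) in IRS-1 clone #10, without the C arrays (-0.32) in IRS-1 clone #20, and without the B (-0.23) or C arrays (-0.25) in IRS-2 clone #6.

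KIF15 fell at 4 h in IRS-1 clone #20 and IRS-2 clone #6. KIF15 in IRS-1 clone #20 was 8.59, 8.36 and 8.36 with IGF-I, against 8.74, 8.71 and 8.83 in SFM, a difference of -0.32 ± 0.07 (SE, adjusted p = 0.005). For IRS-2 clone #6 the KIF15 levels were 8.59, 8.26 and 8.40 with IGF-I, against 8.59, 8.79 and 8.71 in SFM, a difference of -0.28 (adjusted p = 0.017), and the A arrays of both groups read 8.59. Both calls were lost without the B (-0.31 and -0.16) or C arrays (-0.25 and -0.27).

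IRS-1 clone #20 held 3 more falls at 4 h. KIF20A was 9.84, 9.70 and 9.69 with IGF-I, against 9.92, 9.95 and 10.07 in SFM, which is -0.23 ± 0.05 (SE, adjusted p = 0.0053). KIF11 was 10.19, 10.02 and 10.02 with IGF-I, against 10.22, 10.26 and 10.39 in SFM, which is -0.21 ± 0.06 (SE, adjusted p = 0.0218). KIF2C was 10.42, 10.16 and 10.17 with IGF-I, against 10.37, 10.43 and 10.55 in SFM, which is -0.20 ± 0.06 (SE, adjusted p = 0.0381), and its groups overlapped. In each of these genes the A array with IGF-I was the highest of its 3, and all 3 calls were lost without the B (-0.23 to -0.16) or C arrays (-0.16 to -0.11). The cause of the fall was not tested.

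KIF13A was the only transport kinesin that passed at 4 h. In IRS-2 clone #6 it was 10.78, 10.67 and 10.73 with IGF-I, against 11.05, 11.12 and 11.03 in SFM, without overlap and with a difference of -0.35 ± 0.06 (SE, adjusted p = 0.000159). Its other probe sets are not given for 4 h. Among the members that passed nowhere at 4 h the largest values were 0.26 for KIF21B in IRS-1 clone #20 (adjusted p = 0.158) and -0.29 for KIF26A in IRS-1 clone #10 (adjusted p = 0.133).

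The response at 24 h was then set against that at 4 h within each isoform, as the mean of its clones. In IRS-1 clones 13 members responded more upward at 24 h and 3 more downward, where 6.32% and 2.24% of all genes did. In IRS-2 clones 12 responded more upward and 1 more downward, against 2.07% and 2.19% of all genes. The upward differences were all in mitotic members. In the IRS-1 clones they ran up to 0.81 ± 0.07 for KIF14 (SE, adjusted p = 1.31e-11), 0.75 ± 0.07 for KIF18A (adjusted p = 1.31e-11), 0.70 ± 0.06 for KIF2C and 0.65 ± 0.05 for KIF20A, and in IRS-2 clones up to 0.60 ± 0.07 for KIF14 (adjusted p = 6.01e-08) and 0.54 ± 0.07 for KIF18A. KIF2B was the mitotic member that passed in neither isoform, and KIF2A passed in IRS-1 clones only (0.24 ± 0.06, SE), a call lost without the B (0.26) or C arrays (0.22). In IRS-2 clones the calls of KIF18B (0.29 and 0.27) and KIF22 (0.19 and 0.22) were lost without the B or C arrays, and that of KIF23 without the C arrays (0.30).

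Downward differences fell to transport and ciliary members. KIF13B passed in both isoforms, with -0.31 ± 0.06 in IRS-1 clones (SE, adjusted p = 0.000193) and -0.24 ± 0.06 in IRS-2 clones (adjusted p = 0.00804). KIF1C (-0.22 ± 0.06) and KIF6 (-0.28 ± 0.07, SE) passed in the IRS-1 clones, and both calls were lost without the B (-0.25 and -0.22) or C arrays (-0.19 and -0.23). In the IRS-2 clones the KIF13B call was lost without any 1 letter (-0.25 to -0.23), as was that of KIF20B (0.24 to 0.26).

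**Figure D3:**
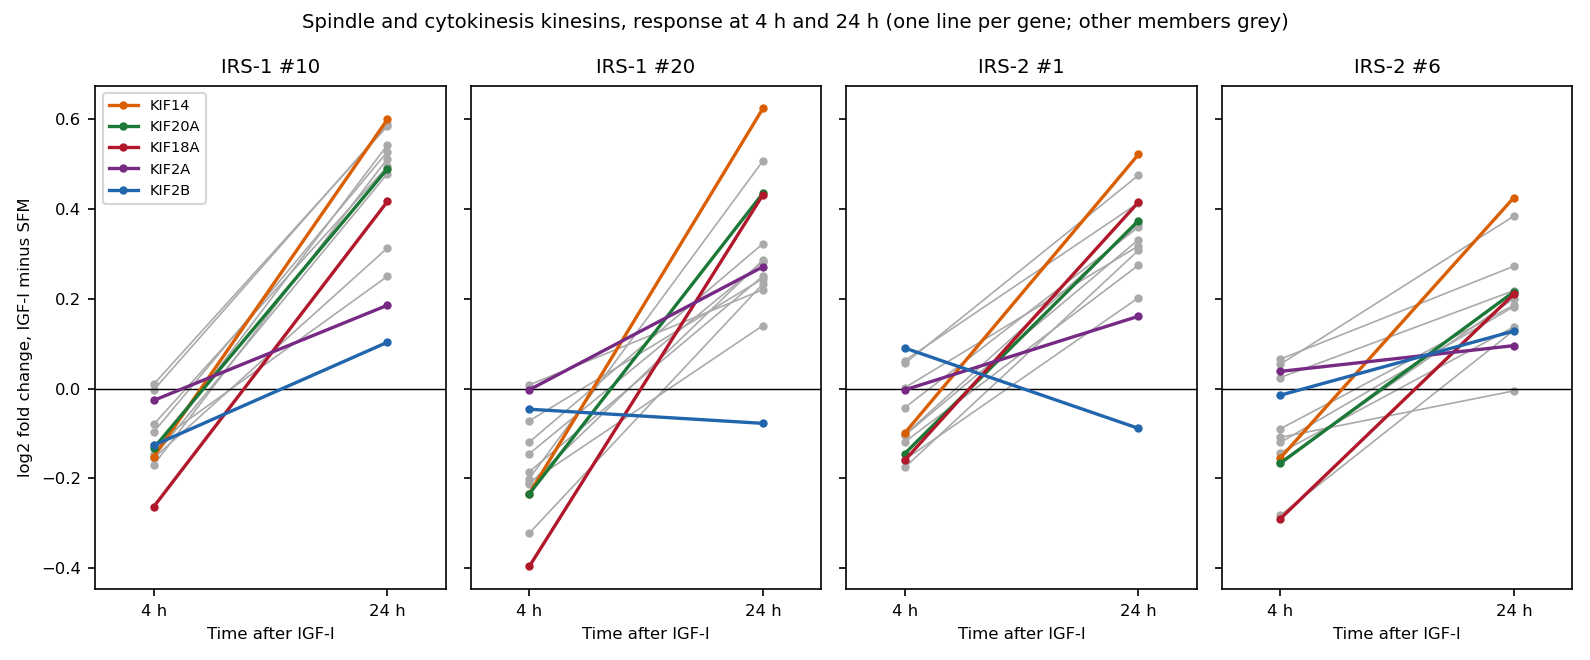
Log2 fold change (IGF-I minus SFM) at 4 h and 24 h of the 14 spindle and cytokinesis kinesins in each clone, 1 line per gene. In all 4 clones KIF14, KIF20A and KIF18A are below 0 at 4 h and above 0 at 24 h.

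Next, the mean response of the IRS-1 clones was set against that of the IRS-2 clones, as the study asks how the isoforms differ. At 4 h 0 members differed (0.44% of all genes), and 1 did at an unadjusted p under 0.05 (7.36% of all genes). At 24 h 1 member differed (0.769% of all genes), the depolymerase KIF2C, whose response was higher in IRS-1 clones by 0.25 ± 0.06 (SE, adjusted p = 0.0205). That call was lost without the arrays of any 1 letter (0.18 to 0.30), with arrays centred on their medians and with variances fitted without a trend. Of the 14 mitotic members, 13 had a higher mean response in the IRS-1 clones at 24 h, with a median difference of 0.11, against -0.04 for the other members and 0.01 for all genes. This order did not hold clone by clone, as the median response of these members was 0.35 in IRS-2 clone #1 and 0.28 in IRS-1 clone #20. The error of this contrast comes from arrays, not clones, and with 2 clones an isoform an exact two-sided permutation over clones cannot give a p below 1 in 3. Clones of the same isoform also differed: KIF18B, for example, differed by 0.59 in IRS-1 clone #10 and 0.22 in IRS-1 clone #20, and that difference between clones was not tested.

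A response also depends on the SFM arrays it is measured against, so SFM levels at 24 h were set against those at 4 h. In IRS-2 clone #1 3 members were higher and 7 lower at 24 h, where 2.9% and 4.74% of all genes were, and all 7 were mitotic. KIF18A fell by 0.46, KIF20A by 0.31, KIF23 by 0.29, KIF2C by 0.28, KIF14 by 0.27, KIFC1 by 0.21 and KIF11 by 0.19. The calls of KIF23, KIF14, KIFC1 and KIF11 were lost without the B arrays (-0.28, -0.21, -0.17 and -0.18) or the C arrays (-0.23, -0.27, -0.19 and -0.14), and that of KIF20A without the B arrays (-0.25), so that 5 members in place of 10 passed without the B arrays and 6 without the C arrays. KIF18A averaged 9.95 with IGF-I at 24 h, against 9.54 in SFM at 24 h and 10.00 in SFM at 4 h. KIF14 averaged 10.60 with IGF-I at 24 h, against 10.08 in SFM at 24 h and 10.35 in SFM at 4 h. Thus in IRS-2 clone #1 the KIF18A level after 24 h of IGF-I was close to that of SFM at 4 h, and that of KIF14 was above both. KIF18A and KIF14 were the extremes of the 7 genes. In the others the level after 24 h of IGF-I exceeded that of SFM at 4 h by less than in KIF14. The comparisons share the SFM arrays of 24 h, and no test was made across times of IGF-I against SFM.

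In the other clones 0 mitotic members passed as lower in SFM at 24 h, and the difference between clones was not tested. The median of the 14 mitotic members was -0.06 in IRS-1 clone #10, with 12 below 0, 0.06 in IRS-1 clone #20 and -0.02 in IRS-2 clone #6, against -0.17 in IRS-2 clone #1. In IRS-1 clone #10 1 member was higher and 0 were lower in SFM at 24 h (2.21% and 0.374% of all genes), the endosome motor KIF16B by 0.29. In IRS-1 clone #20 4 were higher and 5 lower (9.18% and 16.6%), with KIF20A higher by 0.21 as the only mitotic member among them. In IRS-2 clone #6 4 were higher and 2 lower (10.6% and 5.54%), none of them mitotic. KIF13B was higher at 24 h in IRS-1 clone #20 (0.22), IRS-2 clone #1 (0.37) and IRS-2 clone #6 (0.40), and KIF13A in IRS-2 clone #1 (0.28) and IRS-2 clone #6 (0.19). The KIF16B call was lost without the B (0.28) or C arrays (0.25), that of KIF13B in IRS-1 clone #20 without the A (0.18) or C arrays (0.20), and that of KIF13A in IRS-2 clone #6 without any 1 letter (0.16 to 0.21).

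SFM levels of the mitotic kinesins were lower in IRS-1 than in IRS-2 clones, with arrays of both times pooled. By the adjusted p 4 of 41 members were higher and 28 lower in the IRS-1 clones, where 23.9% and 40.8% of all genes were, so that a large part of all genes passed. Of the 14 mitotic members 13 were lower, with a median difference of -0.35, against -0.09 for the 27 other members and -0.04 for all genes. With a 1.5-fold difference and no overlap of arrays asked for as well, 0 members were higher and 2 lower (1.29% and 2.19% of all genes), KIF14 and KIF20A. With quantile normalization 0 members met these criteria, and 1 did without the A arrays.

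KIF14 in SFM ran over 9.27, 9.54 and 9.80 (lowest, median and highest of 12 arrays) in IRS-1 clones, against 10.01, 10.14 and 10.42 in IRS-2 clones, a difference of -0.63 ± 0.04 (SE, adjusted p = 1.38e-20). KIF20A ran over 9.61, 9.88 and 10.26 in IRS-1 clones, against 10.28, 10.54 and 10.69 in IRS-2 clones, a difference of -0.59 ± 0.03 (SE, adjusted p = 1.14e-24). The KIF20A arrays of the isoforms almost met. Clones within an isoform differed too, since KIF23 averaged 9.78 in IRS-1 clone #10 and 10.24 in IRS-1 clone #20, against 10.43 in IRS-2 clone #1 and 10.31 in IRS-2 clone #6. KIFC2, a kinesin-14 of unclear role in these cells, went the other way and was higher in IRS-1 clones (9.46, 9.74 and 10.02) than in IRS-2 clones (9.02, 9.22 and 9.41), by 0.50 ± 0.03 (SE). With 2 clones an isoform, a difference between isoforms and one between clones cannot be told apart.

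**Figure D4:**
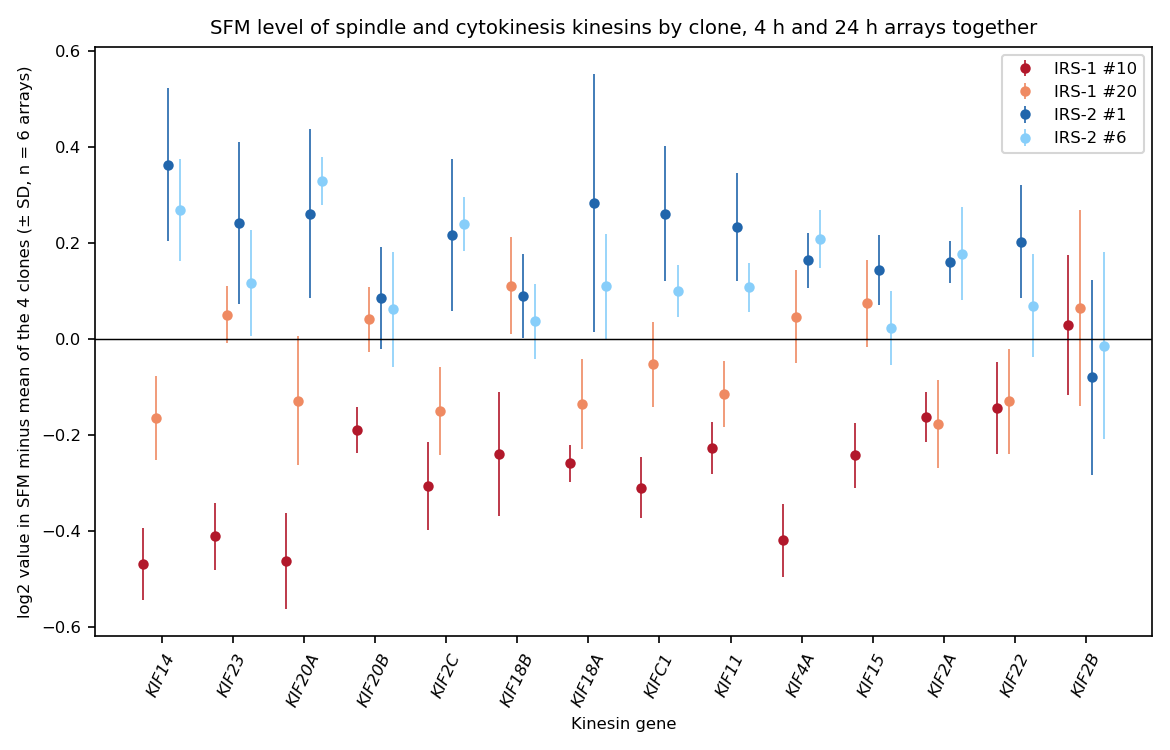
SFM level of the 14 spindle and cytokinesis kinesins in each clone, as the log2 value minus the mean of the 4 clones (mean ± SD over 6 arrays, 4 h and 24 h together). IRS-1 clone #10 is the lowest clone in 12 of the genes, and KIF14 and KIF20A show the widest gap between the IRS-1 clones and the IRS-2 clones.

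Genes that work with the mitotic kinesins were described from a list of 18, of which 17 were measured. At 24 h 16 of them rose in IRS-1 clone #10, 16 in IRS-1 clone #20, 15 in IRS-2 clone #1 and 14 in IRS-2 clone #6, and 0 fell, with medians of 0.46, 0.38, 0.39 and 0.25 in these clones. Of all genes 4.39%, 7.46%, 2.93% and 1.42% rose in the same order. The largest responses were 0.75 ± 0.07 for AURKB, the kinase of the passenger complex, in IRS-1 clone #10, and 0.64 ± 0.08 in IRS-1 clone #10 and 0.59 ± 0.08 in IRS-2 clone #1 for PLK1, the kinase that docks on KIF20A (SE). RACGAP1, the partner of KIF23, rose in all 4 clones (0.23 to 0.27), and so did PRC1 (0.18 to 0.55). CENPE, a kinesin of kinetochores whose symbol lies outside the rule, rose in 3 clones. At 4 h 0, 3, 0 and 1 members of the list fell in the same clones, where 1.47%, 3.54%, 0.794% and 1.58% of all genes fell. At that time 0 rose, where 1.18%, 1.17%, 1.53% and 1.89% of all genes did. The largest values at 4 h were those of BUB1 (-0.28), NUF2 (-0.26) and AURKA (-0.20, adjusted p = 0.0756) in IRS-1 clone #20.

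The S phase list holds 14 genes of DNA replication. At 24 h 13 of 14 rose in IRS-1 clone #10, 4 in IRS-1 clone #20, 8 in IRS-2 clone #1 and 2 in IRS-2 clone #6, with medians of 0.42, 0.11, 0.17 and 0.10, beside the same shares of all genes (4.39%, 7.46%, 2.93% and 1.42%). RRM2 (0.68), CDC45 (0.65) and CDC6 (0.60) in IRS-1 clone #10 were the largest. In IRS-1 clone #20 the medians were thus 0.28 for mitotic kinesins and 0.11 for S phase genes, and in IRS-1 clone #10 they were 0.49 and 0.42; the difference between these lists was not tested. At 4 h CCNE2 (0.23) rose in IRS-1 clone #10, MCM5 (-0.20) and MCM4 (-0.17) fell in IRS-1 clone #20, and CCNE2 in IRS-2 clone #1 (0.22) did not pass (adjusted p = 0.0515).

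The transport partners, 17 genes that include kinesin light chains, adaptors and dynein, had medians between -0.06 and 0.01 at 24 h. The list also holds STARD9, a kinesin whose symbol lies outside the rule. In IRS-1 clone #10 1 rose and 3 fell (4.39% and 6.65% of all genes), and in IRS-1 clone #20 2 rose and 3 fell (7.46% and 2.95%). In IRS-2 clone #1 2 rose and 2 fell (2.93% and 1.62%), and in IRS-2 clone #6 1 rose and 2 fell (1.42% and 4.34%). KIFAP3, the subunit that joins cargo to the kinesin-2 pair of KIF3A and KIF3B, fell in all 4 clones, with differences of -0.30 in IRS-1 clone #10, -0.20 in IRS-1 clone #20, -0.28 in IRS-2 clone #1 and -0.39 in IRS-2 clone #6 (SE 0.06 each). MAPK8IP3, an adaptor of kinesin-1, fell in IRS-1 clone #10 (-0.28) and IRS-1 clone #20 (-0.24). The light chain gene KLC2 rose in IRS-1 clone #10 (0.17), IRS-2 clone #1 (0.22) and IRS-2 clone #6 (0.23), while KLC4 fell in IRS-1 clone #20, IRS-2 clone #1 and IRS-2 clone #6. At 4 h TRAK1, which links kinesin-1 to mitochondria, fell in IRS-1 clone #10 (-0.30), and STARD9 in IRS-2 clone #1 (-0.27) and DYNC1H1 in IRS-1 clone #10 (-0.26) came next without passing.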

How the data were processed

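RNA of the 48 arrays was labelled from total RNA and hybridized to Affymetrix HG-U133 Plus 2.0 arrays. The deposited values are log2 probe set summaries, which the authors made with GC-RMA in GeneData Refiner; GCRMA stands in the submitters' processing notes, with no version given. A further normalization to the untreated state is described in the methods, and the values used here are not relative to SFM. Raw intensities were not used here, and signal over background cannot be given; the number of arrays, 3 a group, limits the precision.

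Of 54675 probe sets 62 controls were left out and 54613 entered the limma fit (limma 3.58.1, R 4.3.3), using 1 mean per group (16 groups), a trend of variance on intensity in eBayes and 32 residual degrees of freedom. Symbols came from the platform's annotation. The 41 members hold 85 probe sets, 26 members have more than 1 and at most 6, and the choice of the brightest used all arrays and no group. Tests were the contrasts of IGF-I against SFM in each clone and time and the differences of responses between isoforms and times, of SFM levels between times, and of SFM levels between isoforms. Calls needed a Benjamini-Hochberg adjusted p under 0.05, and percentages of all genes use 19775 genes with the brightest probe set of each. Tables were made with pandas 2.3.3 and numpy 2.4.6 in Python 3.11.15, figures with matplotlib 3.10.9, and the limma code was tested on simulated data.

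The members, role lists and partner lists were chosen with earlier results of these data known. Values of every array are given for members past the adjusted p in the same direction in at least 3 clones, called at 1.5-fold, or with a tested difference between isoforms or times; others are given by range and largest value, and partner lists by counts and their 3 largest values, to which KIFAP3, KLC2, KLC4, MAPK8IP3, RACGAP1, PRC1 and CENPE were added after their values were seen. Settings tried were a dim filter (3 or more arrays at log2 5 or above), quantile normalization, median centring, variances without trend, a fit of only the 6 arrays compared, averaging all probe sets of a gene, Bonferroni or unadjusted p, 1.5-fold as well, the methods' t-test, the replicate letter as a block, and each letter left out of all groups. Protein sequences were not analysed here. The 48 arrays used hold no IRS-null cells, so whether these responses depend on IRS could not be examined.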

Additional observations from a re-analysis of the deposited data

Results flagged for a closer look

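These differences between responses passed limma's own test of the difference, at a Benjamini-Hochberg adjusted p under 0.05 over all probe sets, and are given on the log2 scale. Between isoforms at 24 h, the response of the depolymerase KIF2C was higher in the IRS-1 clones than in the IRS-2 clones by 0.25. That call was lost without the arrays of any 1 letter, with median centring and with variances without trend. Its error comes from arrays, with 2 clones an isoform.

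Between times, the responses of the IRS-1 clones at 24 h exceeded those at 4 h by 0.81 for KIF14, 0.75 for KIF18A, 0.70 for KIF2C, 0.65 for KIF20A, 0.62 for KIF15, 0.54 for KIF11, 0.53 for KIFC1, 0.53 for KIF4A, 0.52 for KIF23, 0.39 for KIF18B, 0.39 for KIF20B, 0.36 for KIF22 and 0.24 for KIF2A. They were lower at 24 h than at 4 h for KIF13B (-0.31), KIF6 (-0.28) and KIF1C (-0.22). For IRS-2 clones the same difference was 0.60 for KIF14, 0.54 for KIF18A, 0.45 for KIF20A, 0.45 for KIF15, 0.39 for KIF2C, 0.38 for KIF11, 0.36 for KIF4A, 0.34 for KIF23, 0.34 for KIFC1, 0.31 for KIF18B, 0.26 for KIF20B and 0.23 for KIF22, and it was -0.24 for KIF13B. In IRS-2 #1 the SFM arrays of 7 of these genes were also lower at 24 h than at 4 h, which enters the difference between times in that clone, and the 2 comparisons share those arrays. The part of the SFM arrays in the differences was not tested. Groups of 3 arrays were too small for a test of outlying arrays.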

How the results depend on the processing

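The number of kinesins past the adjusted p at 24 h was 15 in IRS-1 clone #10, 16 in IRS-1 clone #20, 11 in IRS-2 clone #1 and 7 in IRS-2 clone #6, and at 4 h it was 1, 5, 0 and 3 in these clones. No called kinesin value changed its sign under the settings tried, and the partner and S phase genes were not rerun under them. Of 114 single kinesin calls in these comparisons and in those of isoforms, times and SFM arrays, all passed with the dim filter, and 110 with quantile normalization, 103 with variances without trend, 96 with all probe sets of a gene averaged and 95 with median centring, while 92 passed without the A arrays, 71 without the B arrays and 67 without the C arrays. The fit of only the 6 arrays compared kept 48 of the calls of IGF-I against SFM and lost 10. The cause of each change was not tested unless the setting itself asks for more.

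Bonferroni left 11 members in IRS-1 clone #10, 4 in IRS-1 clone #20, 8 in IRS-2 clone #1 and 1 in IRS-2 clone #6 at 24 h, and 0 in IRS-1 clone #10, 1 in IRS-1 clone #20 and 1 in IRS-2 clone #6 at 4 h. With 1.5-fold asked for as well, 3 members remained past it in IRS-1 clone #10, 1 in IRS-1 clone #20, 0 in IRS-2 clone #1 and 0 in IRS-2 clone #6 at 24 h, and 0 in every clone at 4 h. The methods' t-test at 1.5-fold gave 3, 1, 0 and 0 at 24 h unadjusted and 3, 0, 0 and 0 after Benjamini-Hochberg, and 0 in every clone at 4 h either way. At an unadjusted p the counts were 16 in IRS-2 clone #6 at 24 h and 11, 15, 6 and 10 at 4 h in the order of clones above.

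Fitting only the 6 arrays compared gave 0 members in IRS-1 clone #10 and 0 in IRS-1 clone #20 at 4 h and 11 in IRS-2 clone #6 at 24 h. Median centring gave 0 in IRS-1 clone #10 and 3 in IRS-1 clone #20 at 4 h, 3 in IRS-2 clone #6 at 24 h, and 0 that differed between isoforms at 24 h. Quantile normalization gave 1 in IRS-2 clone #1 and 5 in IRS-2 clone #6 at 4 h, 11 in IRS-2 clone #6 at 24 h, 2 between isoforms at 24 h, 4 in IRS-1 clone #10, 14 in IRS-1 clone #20 and 11 in IRS-2 clone #6 between SFM times, and 0 in SFM level between isoforms. Variances without trend gave 4 in IRS-2 clone #6 at 24 h, 0 between isoforms at 24 h and 0 between SFM times in IRS-1 clone #10. Averaging all probe sets of a gene gave 2 in IRS-1 clone #10 and 10 in IRS-2 clone #6 between SFM times.

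With the arrays of 1 letter left out of all groups, the counts at 24 h were 12 to 15 in IRS-1 clone #10, 6 (B) to 10 (A or C) in IRS-1 clone #20, 7 (C) to 11 in IRS-2 clone #1 and 3 (C) to 4 (A or B) in IRS-2 clone #6, and at 4 h 0 (B or C) to 1 in IRS-1 clone #10, 0 (C), 1 (B) and 11 (A) in IRS-1 clone #20, 0 in IRS-2 clone #1 and 1 (B or C) to 3 in IRS-2 clone #6. Between isoforms at 24 h the count was 0 each time. Between times it was 13 to 16 in IRS-1 clones and 8 to 11 in IRS-2 clones. Between SFM times it was 0 to 1 in IRS-1 clone #10, 3 to 6 in IRS-1 clone #20, 5 to 9 in IRS-2 clone #1 and 3 to 4 in IRS-2 clone #6, and in SFM level between isoforms 1 to 2. These fits hold 2 arrays a group, so fewer samples enter each test. Same-letter arrays deviated together with correlations of -0.47 to 0.31 (median -0.07), with 3 of 24 pairs over 0.1, so the letters were not taken as pairs. With the letter as a replicate block the counts were 15, 16, 11 and 6 at 24 h and 1, 5, 0 and 3 at 4 h in the order of clones above, and 112 of the 114 calls passed.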
